A study of Mus musculus with 4 samples.

Results

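Transcripts of 9 genes of innate RNA sensing and interferon signalling were followed in the mouse embryonic stem cell line V6.5, at 24 h after Cas9 was switched on in lines with guide RNAs against Klf genes. The genes were taken by name, with earlier results of these data known. They were the cytosolic RNA helicases Ddx58, Ifih1 and Dhx58, the ubiquitin ligase Trim25 and the adaptor Mavs. The transcription factors Irf3, Irf1, Stat2 and Irf9 made up the rest. All 9 were found among the 45706 genes of the count table, and 8 passed the filter on low counts. Messenger RNA was measured in 2 libraries at 24 h and in 2 at 0 h, called replicates A and B in each group. The 24 h cells have the genotype KLF KO in the labels and had received doxycycline (a 2 mg/ml stock diluted 1000-fold), which induces Cas9 from the lentiviral vector c3GIC9. The 0 h cells have the genotype KLF WT and are the 0 hours point of the same induction. The vector's guides targeted KLF4 only, or KLF2, KLF4 and KLF5. All titles carry the abbreviation TKO, while those at 24 h also name a KLF4 knockout and those at 0 h name WT cells, so which guides a library carried is uncertain. Cell lines were picked clones in which the labels report a knockout check by protein blot, and it is not stated whether A and B were separate clones. All cells grew in the 2i condition on irradiated feeder cells, with 15% serum, 1000 U/ml LIF and inhibitors of MEK (1 µM) and GSK3 (3 µM). The drug, DNA cutting by Cas9, any loss of KLF proteins and the elapsed time all separate the groups at once and cannot be told apart.

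RIG-I (the product of Ddx58) and MDA5 (Ifih1) are helicases that bind double-stranded RNA in the cytosol and pass the signal to MAVS on mitochondria. LGP2 (Dhx58) is a related helicase without the signalling domains, and TRIM25 modifies RIG-I with ubiquitin chains. MAVS leads to phosphorylation of IRF3, which turns on interferon beta. Secreted interferon then acts through its receptor, and a complex that holds STAT2 and IRF9 switches on a large set of target genes, Ddx58 itself among them. IRF1 is a further activator of such genes. Mouse embryonic stem cells are known for a weak interferon response.

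RefSeq start windows (250 bases before to 50 after the start, build GRCm38.p6) were found for 8 of the 9 genes, all but Dhx58. The core of the interferon-stimulated response element, spelled GAAA, any 2 bases, GAAA, was searched on both strands and stood in the windows of 3 of the 8 genes, Ddx58, Ifih1 and Stat2. Of 27025 genes with a window, 3.99% held it. These stretches of 30 bases are shown because they set a gene that rose (Ddx58) beside a near-silent relative (Ifih1) and a well-expressed gene that was not past the test (Stat2). Capitals mark the match, which runs on the opposite strand in Ddx58 and Stat2.
Ddx58, chr4:40239804-40239833, minus strand: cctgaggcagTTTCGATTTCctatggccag
Ifih1, chr2:62646206-62646235, minus strand: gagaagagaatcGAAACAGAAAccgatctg
Stat2, chr10:128270266-128270295, plus strand: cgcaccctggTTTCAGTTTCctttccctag

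Irf1 is shown because it fell and its window held other letters. TTCNNNGAA, the core of the gamma-activated site that STAT dimers bind, stood in the window of 1 of the 8 genes, Irf1, and in those of 9.55% of all genes. It begins 90 bases before the Irf1 start. GGGNGTGG, letters that KLF and SP factors bind, stood in the windows of 3 of the 8 genes, Irf1, Stat2 and Trim25, and in those of 19.7% of all genes. Irf1 held 3 such matches, which begin 214, 153 and 34 bases before the start. The 250 bases before the Irf1 start have these 4 matches in capitals, and none of them overlap. A match describes the letters only.
Irf1, chr11:53769764-53770013, plus strand: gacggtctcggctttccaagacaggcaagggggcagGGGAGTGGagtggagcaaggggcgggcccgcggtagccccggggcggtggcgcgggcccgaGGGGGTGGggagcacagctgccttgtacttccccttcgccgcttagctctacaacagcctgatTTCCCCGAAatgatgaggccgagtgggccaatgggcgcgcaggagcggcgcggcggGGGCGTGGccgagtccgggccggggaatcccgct

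The libraries held 46031578 to 52412844 counts. CPM are counts scaled to a common library total with TMM factors. With 3 counts taken as the limit of a 0, the floor on this scale was 0.0593 to 0.0641 CPM, for counting error only. The 0 h replicate A stood apart: its deviation from the mean of the libraries correlated with the GC content of genes (r = 0.588). In 24 h A, 24 h B and 0 h B this r was -0.229, -0.321 and -0.269. Each is across 14314 genes, and genes are not independent replicates. The edgeR test called none of the targeted transcripts, with log2 fold changes of -0.25 for Klf2, -0.29 for Klf4 and -0.72 for Klf5. DESeq2 called Klf5 lower (adjusted p = 0.00142, against 0.0567 in edgeR), and small insertions or deletions need not change them. All 8 embryonic stem cell markers were expressed, at 55.3 CPM or more, and 4 of them fell (Pou5f1, Zfp42, Tdh and Utf1). Over all genes tested, 2.65% were called lower. Sox2, Nanog, Esrrb and Dppa5a were not past edgeR's test, with log2 fold changes of 0.07, -0.29, 0.01 and 0.16. The summed level of the 8 markers was 3627 and 3680 CPM at 24 h, against 4293 and 4094 CPM at 0 h. Its part in the results was not tested.

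Set against the length of all annotated exons, the 9 genes were unevenly expressed, and the helicases Dhx58 and Ifih1 were the lowest in both groups. This length pools the exons of every annotated transcript of a gene, so the order depends on the annotation. At 24 h Trim25 was highest with 43.4 ± 0.175 CPM per kb of annotated exon (SD, n = 2, as for all levels here). Mavs followed with 17.9 ± 1.06, Stat2 with 13.1 ± 0.0710 and Irf3 with 11.6 ± 0.312 CPM per kb. Irf9 (3.25 ± 0.0474), Ddx58 (3.13 ± 0.181) and Irf1 (3.01 ± 0.0714) stood close together, and Ddx58 overlapped both neighbours in that order. Dhx58 had 0.483 ± 0.0742 and Ifih1 0.0115 ± 0.00228 CPM per kb. At 0 h the first 4 kept their order, with Trim25 at 52.6 ± 2.95 and Mavs at 26.2 ± 3.04 CPM per kb. Irf1 came next with 4.92 ± 0.631, above Irf9 (3.04 ± 0.137) and Ddx58 (1.5 ± 0.196). The libraries of neighbouring genes did not overlap at 0 h. Irf1 thus stood above Ddx58 in both 0 h libraries, while the 24 h libraries of these genes overlapped.

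**Figure D1:**
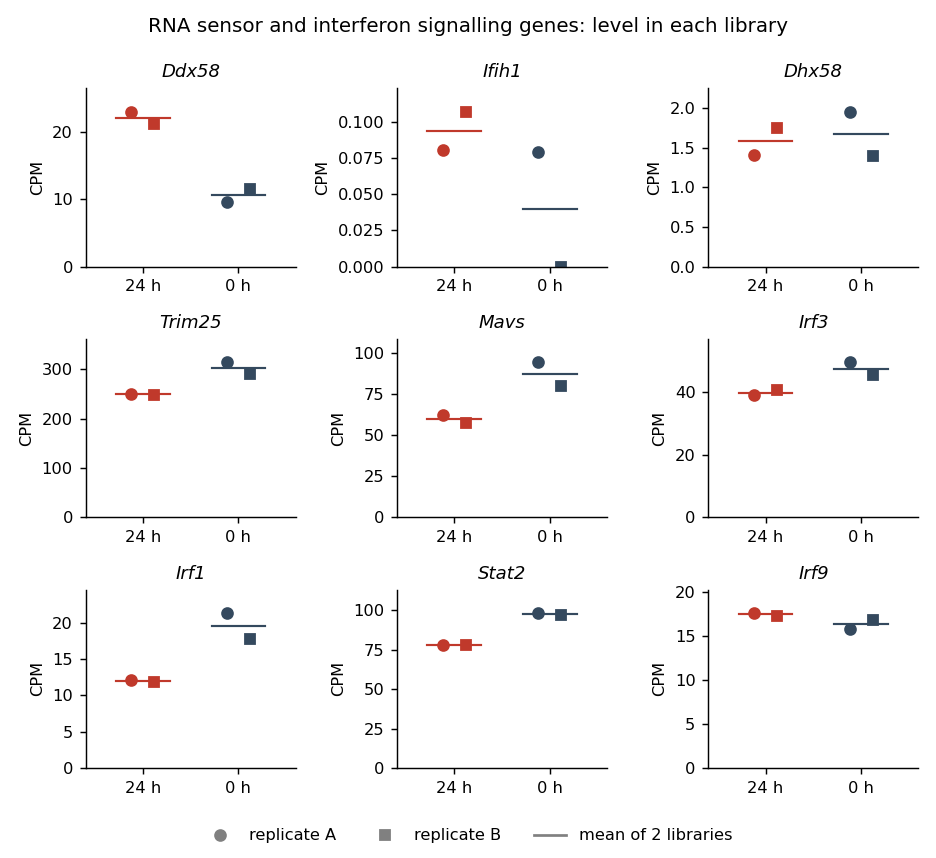
Level of each of the 9 genes in CPM (y axis, from 0, a scale of its own per panel) in the 24 h libraries (left) and the 0 h libraries (right), with circles for replicate A, squares for replicate B and a line at the mean. Ddx58 lies at 22.98 and 21.2 CPM at 24 h, above both 0 h libraries, and Mavs and Irf1 lie below theirs.

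Ddx58, which encodes RIG-I, was the only one of the 8 tested genes that rose. It had 22.98 and 21.2 CPM in the 24 h libraries (1142 and 991 counts), against 9.63 and 11.6 CPM in the 0 h libraries (487 and 563 counts). Both 24 h libraries were above both 0 h libraries, and the gap between groups was larger than that between replicates. The log2 fold change was 1.06 (SE 0.15, 95% interval 0.71 to 1.41), a 2.08-fold rise, and its p in edgeR's quasi-likelihood test, adjusted by Benjamini-Hochberg over 18005 genes, was 0.0125. The log2 fold change stayed at 0.93 to 1.19 under all 14 other settings. Where both groups kept 2 libraries, it was past the threshold throughout, with each setting's own adjusted p from 4.57e-08 to 0.0159. These are refits of the same libraries, and the gene was chosen with earlier results of them known, so they are not independent support. Ddx58 lies on chromosome 4 (40203773 to 40239828, minus strand, GRCm38) and shares no exon bases with another annotated gene.

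The other helicases of the family stayed low. Ifih1, which encodes MDA5 (chromosome 2, 62595798 to 62646255), had 4 and 5 counts in the 24 h libraries and 4 and 0 counts in the 0 h libraries. These counts are close to the limit of detection, and the gene did not pass the filter and was not tested. Dhx58, which encodes LGP2 (chromosome 11, 100694884 to 100704271), had 1.41 and 1.75 CPM at 24 h, against 1.96 and 1.399 CPM at 0 h. Its groups overlapped, and the log2 fold change was -0.09 with a 95% interval of -0.73 to 0.56 (adjusted p = 0.865 in edgeR). Dhx58 had 68 to 99 counts per library. Trim25 (chromosome 11, 88999376 to 89020293) was the most abundant of the 9, with 250.4 and 248.9 CPM at 24 h, against 314.4 and 290.4 CPM at 0 h. Both 24 h libraries were below both 0 h libraries, but the log2 fold change of -0.28 (SE 0.10) was not past the test (adjusted p = 0.136).

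Mavs, the adaptor that RIG-I and MDA5 share, fell. It had 62.4 and 57.3 CPM in the 24 h libraries and 94.7 and 80.3 CPM in the 0 h libraries. The groups did not overlap, and the log2 fold change was -0.55 (SE 0.12, 95% interval -0.84 to -0.26, edgeR adjusted p = 0.0451). Mavs lies on chromosome 2 (131234063 to 131248025) and shares no exon bases with another gene. The call was close to the threshold. It was lost in limma voom (adjusted p = 0.0511) and without 24 h replicate A (0.278) or B (0.52), within a range of 4.21e-29 to 0.52 over 14 settings, while the log2 fold change stayed between -0.67 and -0.43. Irf3, the factor that MAVS signalling activates (chromosome 7, 44997648 to 45002848), had 39.1 and 40.6 CPM at 24 h, against 49.6 and 45.3 CPM at 0 h. Its log2 fold change of -0.25 (95% interval -0.52 to 0.01) was not past the test (adjusted p = 0.213).

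Of the factors that act on interferon target genes, Irf1 fell. It had 12.2 and 11.8 CPM at 24 h, against 21.3 and 17.8 CPM at 0 h. The 24 h libraries were close to each other and below both 0 h libraries. The log2 fold change was -0.71 (SE 0.15, 95% interval -1.05 to -0.36, edgeR adjusted p = 0.0365), which is 0.612 of the 0 h level. This call was lost without 24 h replicate A (adjusted p = 0.224) or B (0.311), within a range of 5.91e-15 to 0.311 over 14 settings, and the log2 fold change stayed between -0.84 and -0.57. Irf1 lies on chromosome 11 (53770014 to 53778374).

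The members of the STAT2 and IRF9 complex did not pass the test. Stat2 (chromosome 10, 128270559 to 128292849) had 78.2 and 77.6 CPM at 24 h, against 98.2 and 96.9 CPM at 0 h. Replicates differed little in either group, and both 24 h libraries were lower. Its log2 fold change was -0.33 (SE 0.10, 95% interval -0.56 to -0.09, adjusted p = 0.1 in edgeR). Irf9 (chromosome 14, 55603571 to 55610030) had 17.7 and 17.3 CPM at 24 h, against 15.9 and 16.9 CPM at 0 h, and a log2 fold change of 0.09 with a 95% interval of -0.21 to 0.40 (adjusted p = 0.682). Small parts of the exons of Irf9 (2.28%, with Rnf31), Irf3 (2.56%, with Bcl2l12), Irf1 (3.4%, with Gm17334) and Dhx58 (4.31%, with Dhx58os) overlap another gene, so their counts are uncertain to that extent. Rnf31, on the strand of Irf9, had 3304 and 3026 counts at 24 h, against 5309 and 3616 at 0 h. Bcl2l12 had 1056 and 1044 counts at 24 h, against 1527 and 1097 at 0 h. Gm17334 had at most 12 counts in a library and Dhx58os 1.

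**Figure D2:**
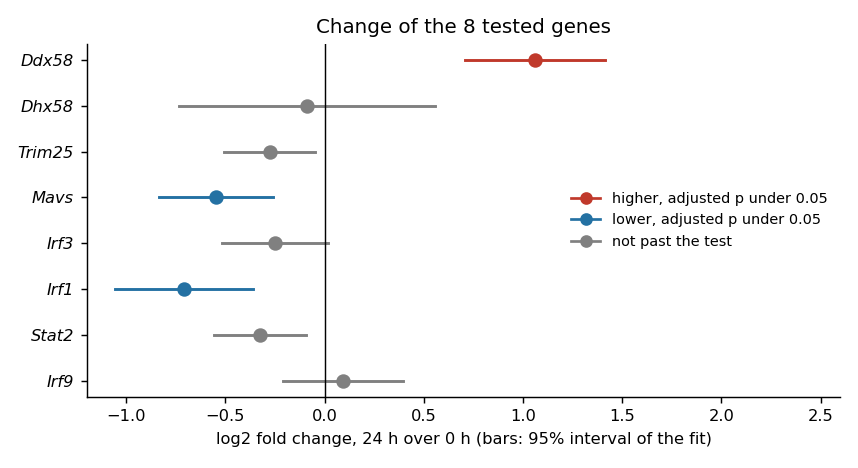
Log2 fold change of 24 h over 0 h (x axis) for the 8 genes that passed the filter, with bars for the 95% interval of the edgeR fit. Ddx58 is at 1.06, Mavs at -0.55 and Irf1 at -0.71, and the other 5 are drawn in grey because they were not past the test.

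In all, 1 of the 8 tested genes rose and 2 fell. Across the transcriptome 4.15% of the 18005 genes tested were called higher and 2.65% lower, so that counts this small over 8 genes can only be read gene by gene. The median log2 fold change of the 8 was -0.26, against -0.0067 over all genes tested, and 6 of the 8 were negative. The count of genes that fell depended on the setting. It was 4 with the GC and length trend removed, when Stat2 (log2 fold change -0.26, adjusted p = 0.0221) and Trim25 (-0.26, 0.00724) joined Mavs (-0.43) and Irf1 (-0.63). The adjusted p ranged over the 14 settings from 8.36e-09 to 0.787 for Stat2 and from 2.37e-13 to 0.83 for Trim25. It was 0 without 24 h replicate A or B, and 5 without 0 h replicate A or B, where Irf3 was also called.

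**Figure D3:**
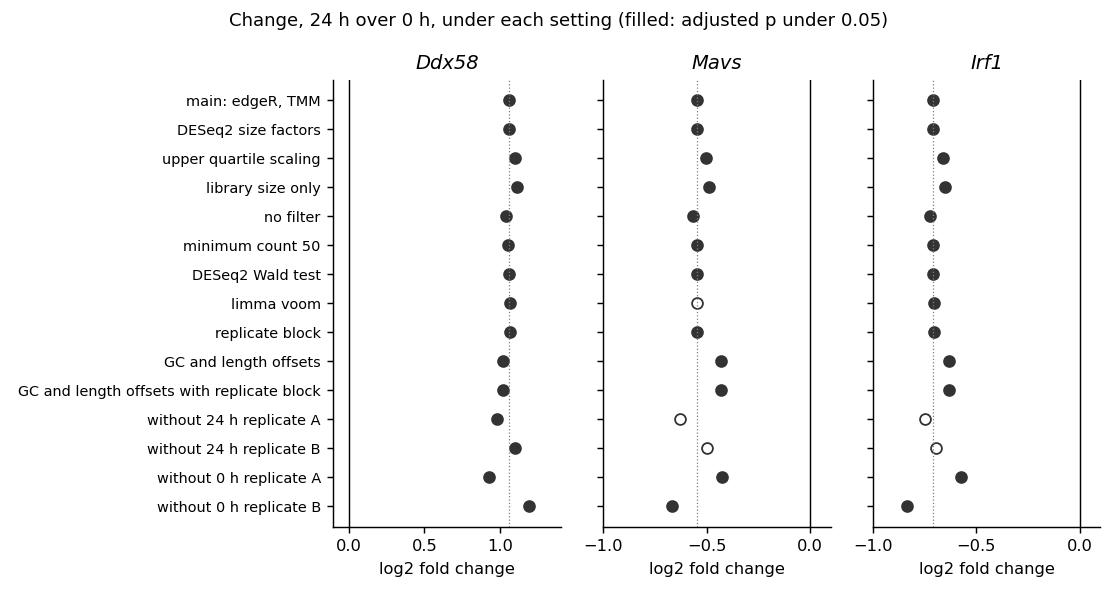
Log2 fold change of 24 h over 0 h (x axis) of Ddx58, Mavs and Irf1 under the main setting and 14 others (rows), filled where the adjusted p is under 0.05. Ddx58 is filled throughout, whereas Mavs is open in 3 rows and Irf1 in 2, those without a 24 h library and, for Mavs, limma voom.

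Upstream and downstream of these genes, interferon transcripts were at or near 0. Of 20 interferon genes, among them Ifnb1 and the interferon alpha genes, 19 had 0 counts in every library, and Ifnl2 had 1 and 0 counts at 24 h and 4 and 0 at 0 h. The interferon alpha genes are close relatives side by side in the genome. How reads that match several genes were counted is not stated, so their 0 counts are uncertain. The receptors were expressed. Ifnar1, a chain of the receptor for interferon alpha and beta, had 43.6 and 40.9 CPM at 24 h, against 48.2 and 45.1 CPM at 0 h. Its partner Ifnar2 had 18.2 and 17.1 CPM at 24 h, against 16.1 and 15.8 CPM at 0 h. Of 9 genes for receptors and their kinases, 0 passed edgeR's test, 0 passed DESeq2 or limma voom, and 0 had an unadjusted p under 0.05 (median log2 fold change 0.05). The smallest p were those of the kinase gene Jak1 (log2 fold change -0.24), the receptor gene Ifngr2 (0.36) and the kinase gene Jak2 (0.25). Jak2 had 29.3 and 27.8 CPM at 24 h, against 22.2 and 25.9 CPM at 0 h (adjusted p = 0.282 in edgeR), and these groups did not overlap.

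Of 15 helpers and adaptors, 14 were tested, and Ddx60 had 2 to 9 counts and did not pass the filter. Of the 14, 0 passed edgeR's test or limma voom and 1 was higher in DESeq2. By edgeR's unadjusted p under 0.05, 2368 of all 18005 genes tested were higher and 2274 lower. Of the 14 helpers and adaptors, 1 was higher and 2 were lower by this measure (median log2 fold change 0.0076). The first 3 by p were Rnf135, a ubiquitin ligase for RIG-I (0.51, adjusted p = 0.0771), Tradd (-0.58, 0.123) and the antiviral zinc finger gene Zc3hav1 (-0.25, 0.191). Rnf135 had 13.6 and 13.5 CPM at 24 h, against 9.88 and 9.07 CPM at 0 h, and these groups did not overlap. Of 10 tested kinases and factors below MAVS, 0 passed edgeR's test, DESeq2 or limma voom, and at an unadjusted p under 0.05 the counts were 1 higher, 1 lower (median -0.01). Chuk (0.30), Jun (-0.52) and Irf5 (-0.45) had the smallest p. Irf7, which interferon induces, had 5 and 5 counts at 24 h, against 1 and 4 at 0 h, and was not tested.

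Among 9 tested genes for other sensors of nucleic acid, Oas1a fell and 8 did not pass (median log2 fold change 0.09). Oas1a encodes an enzyme that makes a messenger activating RNase L. It had 2.86 and 2.99 CPM at 24 h, against 5.14 and 5.68 CPM at 0 h (log2 fold change -0.89, SE 0.18, edgeR adjusted p = 0.0336). Oas1a has close relatives beside it in the genome, so its counts are uncertain, and the call was lost without 24 h replicate A (0.204) or B (0.167). Of 13 tested genes that restrain the pathway, Nlrc5 rose and 12 did not pass (median 0.04). Nlrc5 also encodes an activator of MHC class I genes. It had 53 and 52 counts at 24 h, against 8 and 16 at 0 h (log2 fold change 2.15, SE 0.42, adjusted p = 0.0318). Without 0 h replicate B its log2 fold change was 2.76 and without 0 h replicate A 1.72, and it was past the test in both.

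Of 47 other interferon target genes, 26 passed the filter, 3 rose, 1 fell and 22 did not pass the test (median log2 fold change 0.02). This is 11.5% higher and 3.85% lower of those tested, beside 4.15% and 2.65% over all genes. Tap1, a subunit of the peptide transporter for MHC class I, had 24.8 and 22.9 CPM at 24 h, against 9.90 and 7.201 CPM at 0 h (log2 fold change 1.48, SE 0.18, edgeR adjusted p = 0.00903). Igtp, an interferon-inducible GTPase gene, had 3.16 and 4.53 CPM at 24 h, against 1.28 and 1.63 CPM at 0 h (log2 fold change 1.4, SE 0.26, adjusted p = 0.0281). The groups did not overlap in either gene. Without 24 h replicate B the call of Igtp was lost (adjusted p = 0.1), and Tap1 was past the test under all 14 other settings (1.26 to 1.73). Tap1 overlaps Psmb9, and Igtp overlaps Irgm2, in a small part of their exons, so both counts are uncertain.

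The chemokine gene Cxcl10 had 34 and 28 counts at 24 h, against 2 and 3 at 0 h, and was called higher (adjusted p = 0.015 in edgeR). The ratio of scaled counts was 12.8, with an exact 95% interval of 5.18 to 40.6 that covers counting error only. Cxcl10 overlaps Art3 on the other strand, which had 123 and 101 counts at 24 h and 13 and 17 at 0 h, so its counts are uncertain. Xaf1, a gene with a role in apoptosis, fell, with 22.4 and 24.5 CPM at 24 h, against 40.7 and 45.0 CPM at 0 h (log2 fold change -0.87, SE 0.12, adjusted p = 0.0127). Without 24 h replicate A or B its adjusted p was 0.109 and 0.0507. By edgeR's unadjusted p under 0.05, 5 of the 26 tested targets were higher and 3 lower. Over all 18005 genes tested, 2368 were higher and 2274 lower by the same measure. The levels of the other targets ranged widely, and those named next were chosen after their values were seen. Ifi27 had 1.07 and 1.05 CPM at 24 h, against 0.494 and 0.535 CPM at 0 h. Its log2 fold change was 1.04, not past edgeR's test (adjusted p = 0.0968). Herc6 (0.98, 0.214) was also not past it, and Usp18 had 6 and 8 counts at 24 h and 0 and 0 at 0 h. Ifitm2, a membrane protein gene that limits virus entry, had 538.7 and 541.8 CPM at 24 h, against 604.4 and 581.6 CPM at 0 h (adjusted p = 0.388 in edgeR). Bst2, which encodes the virus tether tetherin, had 13.5 and 11.9 CPM at 24 h, against 22.4 and 16.3 CPM at 0 h, and was not past edgeR's test (adjusted p = 0.0989) but was lower in DESeq2 (0.0258). Isg15 had 2 and 2 counts at 24 h and 0 and 0 at 0 h, Ifit3 had 2 and 0 counts at 24 h and 2 and 2 at 0 h, and Rsad2 had 4 and 2 counts in each group. Ifit1, Ifit1bl1 and Ifit3b had 0 counts in every library. Ifit2 had 23 and 8 counts at 24 h and 6 and 7 at 0 h, and did not pass the filter. The Ifit genes have close relatives beside them in the genome, so their counts are uncertain. Over the 130 other genes of the pathway, 81 were tested, of which 4 rose (4.94%) and 2 fell (2.47%), close to the share over all genes.

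**Figure D4:**
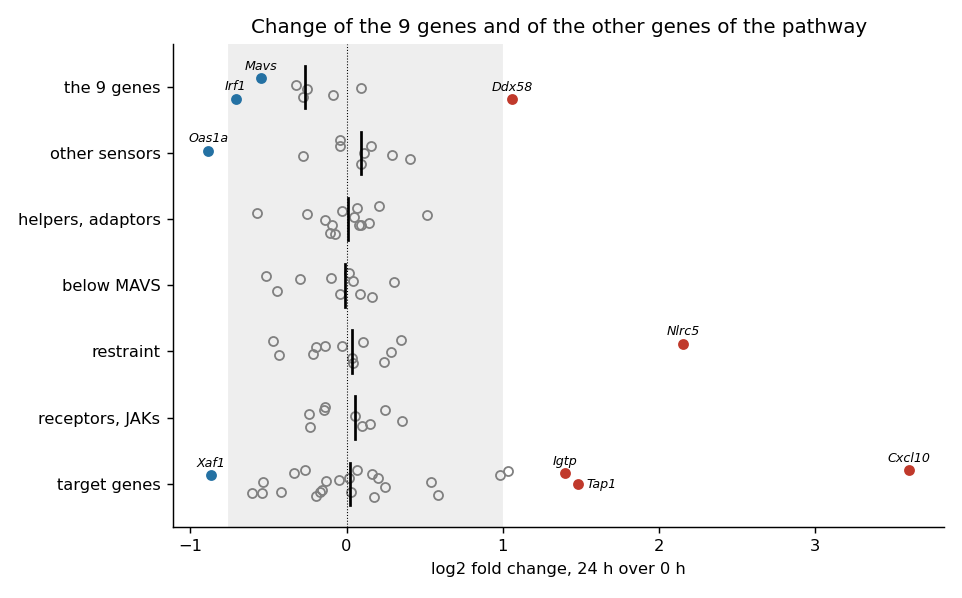
Log2 fold change of 24 h over 0 h (x axis) for the tested genes of each group (rows), filled red where called higher and blue where called lower, with a black bar at the group's median and a grey band from percentile 5 to 95 of all 18005 genes (-0.75 to 0.99). Ddx58, Tap1, Igtp, Nlrc5, Cxcl10 and the uncalled Ifi27 lie to the right of the band. Xaf1 and Oas1a lie to its left, and the other points lie inside it.

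Of 12 fibroblast markers, which feeder cells express, none had 0 counts in every library. Their summed levels were 142.8 and 139.7 CPM at 24 h, against 172.5 and 128.7 CPM at 0 h. The 24 h values lay between those at 0 h. Of the 10 tested, Pdgfrb fell and 9 did not pass. Col1a1 was the highest of the 12, with 69.1 and 67.4 CPM at 24 h, against 90.1 and 59.6 CPM at 0 h. Lum and Dcn had at most 0.119 CPM in any library, and Lum had counts in 24 h replicate B only. Of 8 markers of macrophages and other blood cells, the defining genes Ptprc and Adgre1 had 0 counts in every library. The summed level of the 8 was 53.0 and 51.3 CPM at 24 h, against 44.7 and 39.5 CPM at 0 h, mostly from Cd68. Itgam rose, with 142 and 99 counts at 24 h and 24 and 41 at 0 h. It shares 68.7% of its exon bases with another annotated gene, Gm49368, which has no entry in the count table. The part of these cells in the changes above was not tested. In such bulk samples, fewer cells of a type and less RNA per cell cannot be told apart.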

How the data were processed

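Per the labels' protocols, RNA from V6.5 cells went into stranded mRNA libraries, sequenced as single 50 nt reads. The authors deposited raw read counts per Ensembl gene. Per the submitters' processing notes, the tools were TopHat2, HTSeq and DESeq and the build mm10, with no roles given. For the counting, neither annotation release nor strand handling is stated, so overlapping genes are uncertain. GENCODE M21 (GRCm38) gave symbols, coordinates, exon lengths and GC content, and lacks 563 identifiers (0.107% of counts). Start windows came from RefSeq (GRCm38.p6).

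Genes were kept with filterByExpr (minimum count 10, minimum total 15). The 24 h and 0 h libraries were set against each other in R 4.3.3 by the quasi-likelihood test of edgeR 4.0.16 (TMM scaling, legacy=TRUE, 2-sided), with Benjamini-Hochberg adjustment over all 18005 genes and a threshold of 0.05. Intervals are the fit's own at 95%. With 2 libraries per group, the fit pools the spread over genes, and p-values measure only the spread between these samples. Groups this small often stand apart without any change, so statements that groups did not overlap are description only. The script was first tested on simulated data. Alternatives were other scalings, filters, DESeq2 1.42.0, limma 3.58.1 (voom), the replicate letter as a block, offsets for GC content and transcript length, and each library left out.

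The 9 genes and the pathway lists were chosen with earlier results of these data known. All 9 genes are named, and of each list every gene past the test, or else up to 3 in order of p. Other genes, such as Ifnar1, Ddx60, Ifitm2, Bst2, Isg15, Cd68 and Lum, were chosen after their values were seen. Of the pathway lists, 1 gene is not reported here and is left out of every list count. Sequences of proteins were not used here. Figures were drawn with matplotlib 3.10.9.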

Additional observations from a re-analysis of the deposited data

How the results depend on the processing

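Ddx58 was called higher under all 14 alternatives, and the count of the 9 genes that rose was 1 in each. The direction of Mavs, Irf1, Stat2, Irf3, Irf9 and Trim25 held throughout. Dhx58, which was never called, turned positive with the GC and length offsets (log2 fold change 0.027, and 0.0245 with the replicate block), and ranged from -0.31 to 0.17 with 1 library left out. The genes that fell numbered 1 in limma voom, 4 with the offsets, 4 with the offsets and the block, and 0 to 5 with 1 library left out. The other genes of the pathway that were called numbered 6 in the main setting, 11 with the replicate block, 13 with the offsets, 16 with both, and 3 to 48 with 1 library left out. Over all genes the calls numbered 1225, with 2589 without a filter, 1994 in DESeq2, 3253 with the replicate block, 4377 with the offsets, 5104 with both, and 506 to 9416 with 1 library left out. With 1 library left out, the remaining one is taken to vary as the other group does. These counts and the adjusted p of those fits thus do not measure its spread. No label says that the letters pair the samples. The deviations of the A libraries from their group means correlated at 0.191 across genes, and the block changed no call of the 9 genes. The causes of these shifts were not tested. Ifih1 and the 21 target genes that did not pass the filter had too few counts to be tested. Whether depth or a lack of expression set this was not tested.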

Other observations

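Because Nlrc5 and Tap1 rose, 17 other genes of MHC class I presentation were looked at, a list chosen after those values were seen. Of these, 15 passed the filter and 0 passed edgeR's quasi-likelihood test or limma voom. DESeq2 called 1 lower, H2-D1 (adjusted p = 0.0404). By edgeR's unadjusted p under 0.05, 1 was higher (Ciita) and 2 were lower (H2-D1 and Calr). Over all 18005 genes tested, 2368 were higher and 2274 lower by the same measure. Ciita, though on this list, is known mainly as the activator of MHC class II genes. H2-K1, a heavy chain of MHC class I, had 19.8 and 17.8 CPM at 24 h, against 24.0 and 18.1 CPM at 0 h, and these groups overlapped. H2-D1, another heavy chain, had 10.7 and 9.38 CPM at 24 h, against 16.3 and 13.2 CPM at 0 h. Of the interferon targets, the light chain gene B2m had 42.0 and 40.8 CPM at 24 h, against 35.2 and 36.8 CPM at 0 h (adjusted p = 0.296 in edgeR). Psmb9, a proteasome subunit gene that shares its start region with Tap1, had 2.25 and 2.50 CPM at 24 h, against 1.5 and 1.67 CPM at 0 h (adjusted p = 0.158).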
